A study of Mus musculus with 24 samples.

Results

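The 9 genes described here code for proteins of the Bcl2 family, which control the mitochondrial route of apoptosis. All 9 were found among the 22889 rows of the deposited expression table. The anti-apoptotic members are Bcl2, Bcl2l1 (Bcl-xL) and Mcl1, the pore-forming effectors are Bax and Bak1, and the BH3-only members are Bbc3 (Puma), Pmaip1 (Noxa), Bcl2l11 (Bim) and Bid.

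As background, the effectors open the outer mitochondrial membrane when they are activated, and cytochrome c then leaves the mitochondria and activates caspases through Apaf1. The anti-apoptotic members hold the effectors and the BH3-only proteins in inactive complexes, and BH3-only proteins raised by stress, loss of trophic support or DNA damage release that brake. During development many motor neurons die by this route, and neurons are known to depend on Bax for it.

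Transcripts were measured by SMART-seq2 poly(A) RNA sequencing in cells sorted from 2 kinds of mouse embryonic stem cell culture, both patterned for 5 days as embryoid bodies. Oculomotor (OMN) cultures came from an Islet1-GFP line that carries a Phox2a transgene under the nestin enhancer, which limits it to neuronal progenitors, and they received the Smoothened agonist SAG at 250 nM and Fgf8 at 100 ng/ml. Spinal (SC) cultures came from an Hb9-GFP line and received SAG at 500 nM and retinoic acid at 100 nM. Each culture was sorted into a GFP-positive motor neuron fraction and a GFP-negative remainder, which gave 4 groups of 6 samples, all labelled as control. The line, the reporter, the transgene and the morphogens all differed between the cultures and cannot be told apart. The labels do not say whether the replicates came from separate cultures, so the p-values measure the spread between these samples.

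Values are RPKM, reads scaled by gene length and by mapped reads, so levels can be compared between genes per length. The steps of the RPKM values gave between 752529 and 7675428 mapped reads per sample. In every group the samples numbered 1 to 4 held fewer reads (752529 to 4642207) than those numbered 5 and 6 (4822576 to 7675428), and these sets are given separately where it matters. Libraries were run on HiSeq2000 and HiSeq2500 instruments, and which library was run on which is not stated.

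The sort was checked on the reporter genes. Isl1, a LIM homeodomain factor of motor neurons, was 249 ± 77.8 RPKM (mean ± SD, n = 6) in OMN GFP-positive and 1.20 ± 0.405 RPKM in OMN GFP-negative samples. Mnx1, the gene of Hb9, was 97.7 ± 44.0 RPKM in SC GFP-positive and 2.52 ± 2.54 RPKM in OMN GFP-positive samples. Phox2a, a determinant of oculomotor identity, was 25.7 ± 18.0 RPKM in OMN GFP-positive and 1.78 ± 3.38 RPKM in SC GFP-positive samples. These groups overlapped: OMN GFP-positive replicates 5 and 6 held 6.08 and 5.83 RPKM, and SC GFP-positive replicate 1 held 8.59 RPKM. Reads of the transgene and of the resident gene cannot be told apart.

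Some libraries stood apart. SC GFP-positive replicate 4 had 43.1 RPKM of Mnx1, the gene of its reporter, which was the lowest of its group but above SC GFP-negative replicates 1, 2, 3, 5 and 6. Other markers there went against its label: Isl1 was 7.63 RPKM against 50.4 to 123 RPKM in the other SC GFP-positive samples, and the neuronal tubulin Tubb3 was 36.4 RPKM against 121 to 785 RPKM. Its partner, SC GFP-negative replicate 4, held Mnx1 at 69.4 RPKM, while the other SC GFP-negative samples held at most 4.72 RPKM. The pluripotency factor Nanog was 156 RPKM in the GFP-positive and 185 RPKM in the GFP-negative library of this pair. Genes of the mitochondrial genome took 22.6% and 17.3% of the summed RPKM in these libraries, and at most 16.7% in any other. In SC GFP-negative replicate 2, the genes Gm10800, Gm10801 and Gm21738 took 68.8% of the summed RPKM, and in its partner, SC GFP-positive replicate 2, they took 17.8%. The partner held the lowest Bax (22.6 RPKM) and Bcl2 (0.0939 RPKM) of the SC GFP-positive samples. Several comparisons of Pmaip1, Bax and Bbc3 are also given without some of these libraries.

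Bax and Mcl1 were the most abundant members by RPKM. They took the first and second place in each of the 24 samples, with Bax first in 18 and Mcl1 first in 6. The median over the 24 samples was 84.1 RPKM for Bax and 49.99 RPKM for Mcl1. The other members had medians between 1.24 RPKM for Bcl2 and 6.46 RPKM for Bcl2l1. Bcl2 was the lowest member in 10 samples, Bak1 in 8, Pmaip1 in 5 and Bid in 1.

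The order of the lower members changed between groups. By group median, the highest member after Bax and Mcl1 was Bcl2l1 in OMN GFP-positive samples (7.37 RPKM), Pmaip1 in OMN GFP-negative samples (11.3 RPKM) and Bbc3 in both SC groups (9.77 RPKM in GFP-positive and 7.81 RPKM in GFP-negative samples). Pmaip1 was last of the 9 in OMN GFP-positive samples (0.248 RPKM), and Bcl2 was last in the remaining groups (1.43 RPKM in OMN GFP-negative, 0.845 RPKM in SC GFP-positive and 1.28 RPKM in SC GFP-negative samples). The ranges of Bcl2l1, Bbc3 and Bid overlapped in every group, so their order among themselves was within the spread of the samples.

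**Figure D1:**
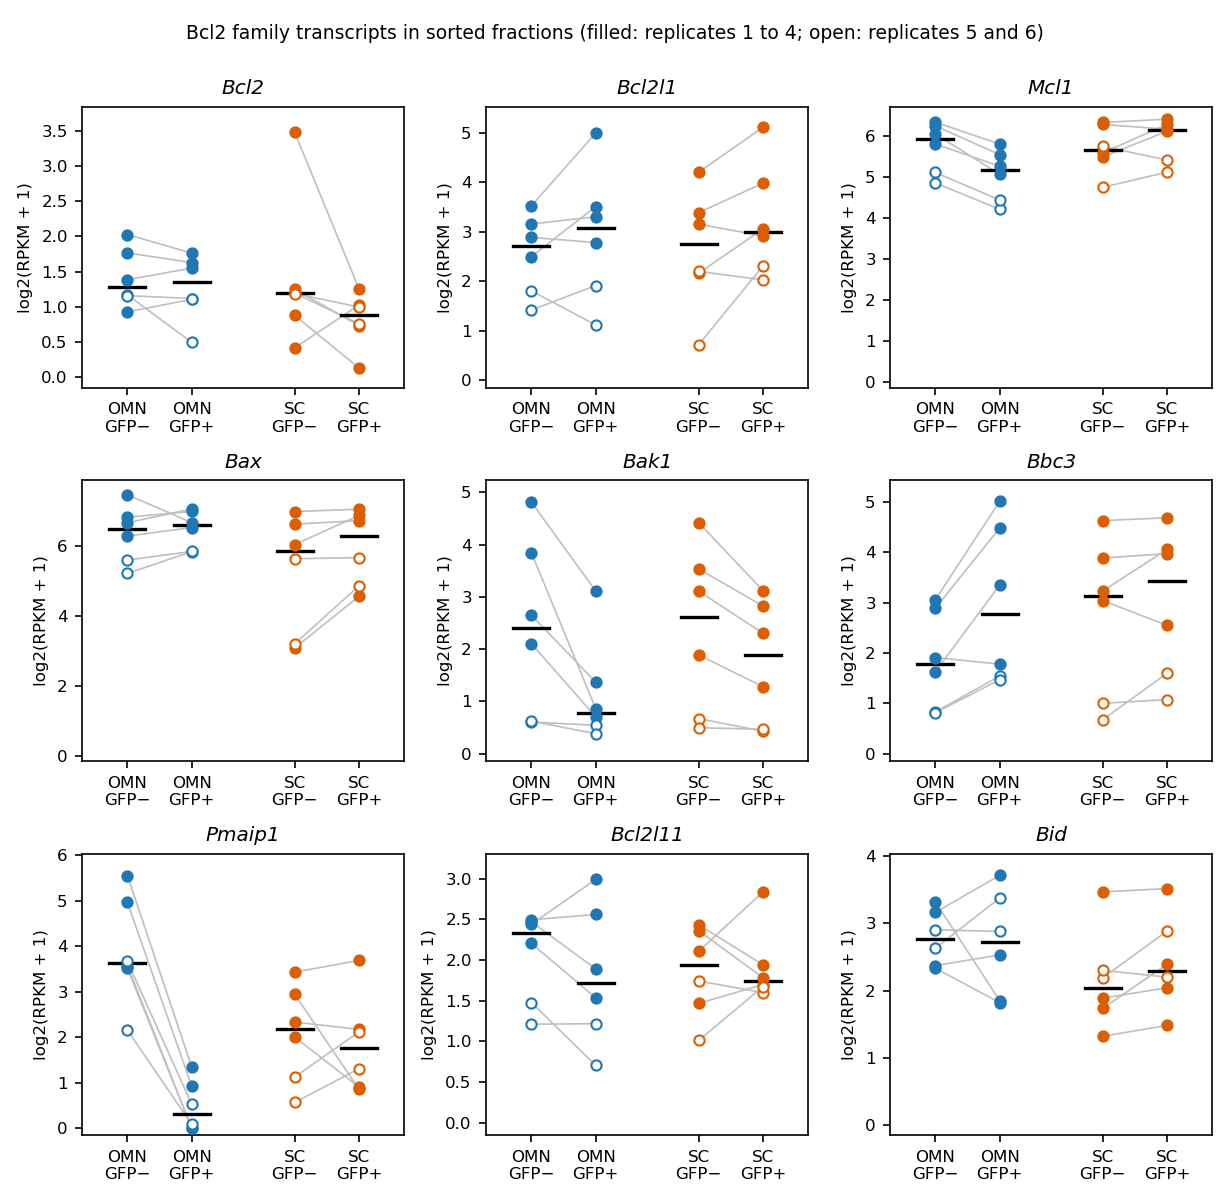
Level of each of the 9 members, as log2(RPKM + 1), in the 24 samples, by culture (OMN, SC) and sorted fraction. Each point is a sample, filled for replicates 1 to 4 and open for replicates 5 and 6, grey lines join GFP-negative and GFP-positive samples of the same number, and black bars are group medians; the OMN fractions do not overlap for Pmaip1, and the open points lie low for Bak1 and Bbc3.

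The main change among the members was a lower level of Pmaip1 in OMN GFP-positive than in OMN GFP-negative cells. It was the only 1 of the 9 members called there by limma (adjusted p under 0.05), where 6.15% of the 22179 genes tested were called, 3.81% as higher and 2.34% as lower in GFP-positive cells. With median-of-ratios scaling 51.2% of the called genes were higher, against 62.0% without it.

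No member was called in the other comparisons. Between the cultures, limma called 0.603% of 19240 genes in GFP-positive cells and 0.960% of 22179 genes in GFP-negative cells. It called 1.23% of genes between the fractions of SC cultures, and 0.320% when the difference between fractions (the step) was compared between the cultures. At an unadjusted p under 0.05, Mcl1 and Pmaip1 passed in GFP-positive cells, Pmaip1 passed in GFP-negative cells and in the comparison of steps, and 0 members passed between the SC fractions. Over all genes 10.1%, 11.3%, 7.13% and 10.4% passed in these comparisons. limma voom on recovered whole reads also called 0 members in these 4 comparisons, with Bak1 too low to be tested in GFP-positive cells, and called Pmaip1 between the OMN fractions.

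Same-numbered fractions of a culture are called pairs here, though the labels do not say that they were sorted together. They deviated together, so the fraction comparisons were also fitted with the replicate number as a block. That number also joins OMN and SC samples. Deviations of same-numbered samples correlated between cultures at -0.17 to 0.71 in GFP-positive and -0.04 to 0.61 in GFP-negative samples. With that replicate block limma called 3 of the 9 members between the OMN fractions, Pmaip1, Mcl1 and Bbc3, where it called 10.6% of all genes. With the pairs kept apart in each culture, a fit chosen after seeing the data, Bak1 was added, making 4 of 9 against 16.4% of all genes. No member was called between the SC fractions in either fit.

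**Figure D2:**
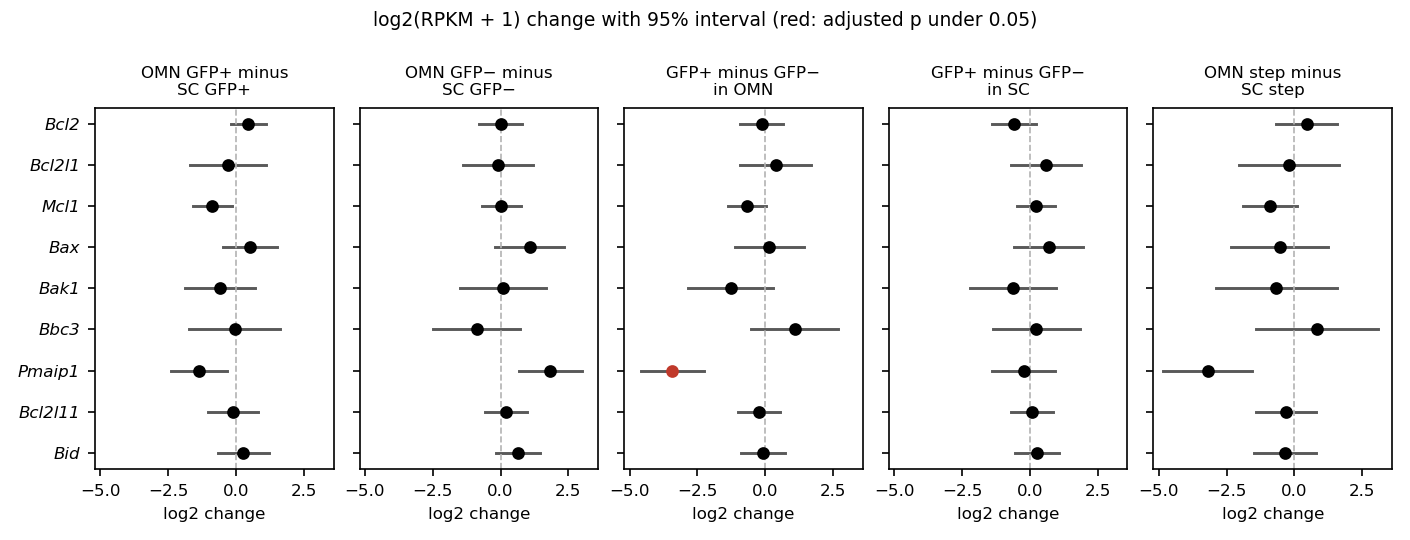
Change of each member on the log2(RPKM + 1) scale in the 5 comparisons, with its 95% confidence interval from limma without a block. Red marks an adjusted p under 0.05, reached only by Pmaip1 between the OMN fractions, at a log2 change of -3.43; the interval of Pmaip1 also lies off 0 in the comparisons between cultures and between steps, and that of Mcl1 in GFP-positive cells.

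Mcl1 was the most abundant of the anti-apoptotic members. Mcl1 codes for a short-lived protein that binds Noxa and Bim. In OMN GFP-positive samples it had a lowest value of 17.5, a median of 35.0 and a highest value of 54.9 RPKM. In OMN GFP-negative samples these were 27.9, 60.0 and 80.0 RPKM, and in SC GFP-positive samples 33.7, 69.7 and 84.3 RPKM. SC GFP-negative samples had 25.9, 49.99 and 79.6 RPKM. The ranges of all 4 groups overlapped, and the lowest value of each was a sample numbered 5 or 6.

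Within pairs, Mcl1 was lower in the GFP-positive fraction in 6 of 6 OMN pairs, by between 0.54 and 0.98 on the log2 scale, and in 2 of 6 SC pairs. The log2 change between the OMN fractions was -0.68 (SE 0.34, limma adjusted p = 0.304), with an adjusted p of 0.0310 with the replicate block and 6.29e-03 with the pairs of each culture as the block. It was -0.69 in replicates 1 to 4 and -0.66 in replicates 5 and 6. For the difference between the cultures in this step, the log2 value for Mcl1 was -0.90 (SE 0.48, limma adjusted p = 0.751), and the adjusted p was 0.0424 with the pairs of each culture as the block.

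Between the cultures, all 6 OMN GFP-positive samples lay below the SC GFP-positive median of Mcl1. The log2 change was -0.87 (SE 0.33, limma adjusted p = 0.371). With the depth set as a covariate the adjusted p was 0.0389, and limma then called 0.993% of all genes. The change was -0.83 in replicates 1 to 4 and -0.94 in replicates 5 and 6. In GFP-negative cells the log2 change of Mcl1 was 0.03 (SE 0.34).

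Bcl2l1 codes for Bcl-xL, the main survival protein of the family in many neurons. It ranged from 1.17 to 30.8 RPKM in OMN GFP-positive, 1.67 to 10.51 RPKM in OMN GFP-negative, 3.08 to 33.5 RPKM in SC GFP-positive and 0.645 to 17.4 RPKM in SC GFP-negative samples. It was higher in the GFP-positive fraction in 4 of 6 pairs of each culture. Its log2 changes lay between -0.30 and 0.60 in the 4 comparisons of groups, with SEs of 0.63 to 0.65, so none was larger than its SE.

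Bcl2, the founding member, was low in all groups. Its mean was 1.52 ± 0.741 RPKM in OMN GFP-positive, 1.75 ± 0.830 RPKM in OMN GFP-negative and 0.812 ± 0.440 RPKM in SC GFP-positive samples (mean ± SD, n = 6). In SC GFP-negative samples it was 2.54 ± 3.75 RPKM, where replicate 3 alone reached 10.2 RPKM, and the group median was 1.28 RPKM. Between 2 and 83 reads lay behind each Bcl2 value. It was lower in the GFP-positive fraction in 4 of 6 OMN pairs and 5 of 6 SC pairs, and the limma adjusted p was 0.987 and 0.664.

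Of the effectors, Bax made up nearly all of the RPKM. Bax, the cytosolic effector that moves to mitochondria on activation, was 94.0 ± 32.8 RPKM in OMN GFP-positive, 91.5 ± 50.6 RPKM in OMN GFP-negative, 75.6 ± 47.7 RPKM in SC GFP-positive and 58.8 ± 47.6 RPKM in SC GFP-negative samples (mean ± SD, n = 6). Its share of the summed RPKM of both effectors had a median of 96.2% over the 24 samples and was lowest, at 73.5%, in SC GFP-negative replicate 2, from 20 reads of Bax. Without that library the lowest share was 78.8%. Bax was higher in the GFP-positive fraction in 6 of 6 SC pairs, by between 0.03 and 1.66 on the log2 scale, and in 5 of 6 OMN pairs. The log2 change was 0.69 (SE 0.61, limma adjusted p = 0.783) between the SC fractions and 0.15 (SE 0.61, adjusted p = 1) between the OMN fractions, and no fit with a block called it. Leaving out 1 sample moved the change between the SC fractions from 0.26, without SC GFP-negative replicate 2, to 1.04, without SC GFP-negative replicate 4. SC GFP-negative replicate 6 was also low, at 8.23 RPKM of Bax from 92 reads, against 7.49 RPKM in replicate 2 of that group. The largest log2 change of Bax was 1.08 (SE 0.61, limma adjusted p = 0.530), higher in OMN than in SC GFP-negative samples, and it too missed the threshold. It was 0.64 without SC GFP-negative replicate 2, 1.42 without both spinal samples 4 and 0.96 without all 3.

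Bak1, the effector that sits in the mitochondrial membrane, was lower in the GFP-positive fraction in all 12 pairs. In OMN GFP-positive samples it had a lowest value of 0.301, a median of 0.719 and a highest value of 7.64 RPKM, and in OMN GFP-negative samples 0.517, 4.28 and 27.1 RPKM. The SC GFP-positive values were 0.345, 2.68 and 7.68 RPKM, and the SC GFP-negative values 0.410, 5.16 and 20.4 RPKM. The groups overlapped, and the samples numbered 5 and 6 lay at or below 0.589 RPKM in every group.

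The log2 change of Bak1 between the OMN fractions was -1.28 (SE 0.77, limma adjusted p = 0.429). The adjusted p was 0.0805 with the replicate block and 0.0169 with the pairs of each culture as the block. It was -1.84 in replicates 1 to 4 and -0.15 in replicates 5 and 6, so the size rested on the first set, and it lay between -1.67 and -0.80 when 1 sample was left out. Between the SC fractions the log2 change was -0.62 (SE 0.77, limma adjusted p = 0.865), and between -0.99 and -0.20 with 1 sample left out. Exons of Bak1 share up to 437 bases with an opposite-strand gene, Ggnbp1, those of Bcl2 share 558 bases with an antisense RNA, and those of Bax share 192 bases with Gm45808 on its own strand, and reads there cannot be told apart.

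Pmaip1 codes for Noxa, a BH3-only protein that binds Mcl1 and promotes its breakdown. The OMN GFP-positive samples 1 to 6 held 0.896, 1.54, 0, 0, 0.0592 and 0.438 RPKM. The OMN GFP-negative samples 1 to 6 held 30.2, 46.0, 10.4, 10.9, 3.45 and 11.7 RPKM. Every GFP-positive value lay below every GFP-negative value, so the groups did not overlap, as was the case for 6.52% of the genes tested in this comparison.

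Few reads lay behind the low values. The OMN GFP-positive samples had 11, 15, 0, 0, 1 and 8 reads of Pmaip1, and the OMN GFP-negative samples between 39 and 519. A count of 0 allows up to 0.443 RPKM in replicate 3 and 0.802 RPKM in replicate 4, at 3 reads. These limits cover counting error only, since reads amplified without molecular identifiers are not independent molecules.

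Between the OMN fractions the log2(RPKM + 1) change of Pmaip1 was -3.43 (SE 0.56, 95% interval -4.59 to -2.26, limma adjusted p = 3.73e-04), lower in GFP-positive cells in 6 of 6 pairs. The adjusted p was 2.03e-04 with the replicate block. This scale understates the change of a low gene: the value was -5.36 with an offset of 0.1 RPKM in place of 1, and -5.50 with limma voom on recovered reads. Leaving out any 1 of the 24 samples kept the change between -3.78 and -3.10 and the adjusted p under 0.05. Replicates 1 to 4 alone gave -3.84 (limma adjusted p = 3.96e-03) and replicates 5 and 6 alone -2.61 (adjusted p = 0.0553). Fewer cells with Pmaip1 transcripts and less of the transcript in each cell cannot be told apart in bulk samples.

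In SC cultures Pmaip1 had a lowest value of 0.812, a median of 2.41 and a highest value of 11.9 RPKM in GFP-positive samples, and 0.479, 3.53 and 9.78 RPKM in GFP-negative samples. The fractions overlapped almost fully, and the highest value of each was replicate 4. Pmaip1 was lower in the GFP-positive fraction in 3 of 6 pairs, and the log2 change was -0.22 (SE 0.56, limma adjusted p = 0.951). Without both samples 4 it was -0.32 (adjusted p = 0.884), and without SC GFP-negative replicate 2 as well it was -0.03. The sign differed between the depth sets, at -0.77 in replicates 1 to 4 and 0.87 in replicates 5 and 6, where both GFP-positive samples were higher than their partners.

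The difference between the 2 steps was itself tested. It was -3.20 on the log2 scale (SE 0.80, limma adjusted p = 0.0935), which missed the threshold. With the replicate block the adjusted p was 0.0438, where 0.600% of genes were called, and with the pairs of each culture as the block it was 9.81e-03, where 2.04% were called. Without both spinal samples 4, a choice made after seeing the data, the value was -3.10 (adjusted p = 0.0422), with 1.04% of genes called. Leaving out OMN GFP-negative replicate 5 gave -3.55 (adjusted p = 0.0452) and leaving out SC GFP-negative replicate 4 gave -3.47 (adjusted p = 0.0287). The difference between steps was -3.06 in replicates 1 to 4 and -3.48 in replicates 5 and 6.

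Between the cultures Pmaip1 moved in opposite directions in the fractions, without passing the threshold. In GFP-positive cells all 6 OMN samples lay below the SC median, and the log2 change was -1.36 (SE 0.48, limma adjusted p = 0.304). In GFP-negative cells 5 of 6 OMN samples lay above the SC median, and the change was 1.84 (SE 0.56, limma adjusted p = 0.140). Without both spinal samples 4 the changes were -0.99 (adjusted p = 0.332) and 2.11 (adjusted p = 0.0288), and in the second of these 2.67% of genes were called. These comparisons share samples with those between fractions.

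Markers of pluripotent cells also differed between the OMN fractions. Of the 9 markers listed for such cells, 7 were called lower in OMN GFP-positive than in OMN GFP-negative cells (Nanog, Zfp42, Esrrb, Klf4, Tdgf1, Dppa5a and Dppa4) and none higher. Their summed level in samples 1 to 6 was 262, 82.2, 63.7, 1.01, 24.5 and 57.0 RPKM in OMN GFP-positive samples. It was 7286, 3119, 6666, 699, 9901 and 6289 RPKM in OMN GFP-negative samples. The fractions did not overlap in this sum, and Dppa5a was the most abundant marker in every sample but OMN GFP-positive replicate 4, where 7 of the 9 markers were at 0 and Klf4 was the highest at 0.696 RPKM.

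In SC cultures the sum in samples 1 to 6 was 722, 484, 15.6, 5268, 12433 and 1134 RPKM in GFP-positive samples, and 139, 128, 95.6, 5892, 359 and 456 RPKM in GFP-negative samples. Both samples 4, where Pmaip1 was highest, were among those with a high sum, and SC GFP-positive replicate 5 had the highest sum with Pmaip1 at 3.34 RPKM. Dppa5a made up 12328 RPKM of that highest sum. Nanog and Pou5f1 were 40.5 and 2.15 RPKM in that library, against 156 and 31.5 RPKM in SC GFP-positive replicate 4. Pou5f1 was at 0 in 3 OMN GFP-positive samples and in SC GFP-negative replicate 3. Nanog was at 0 in SC GFP-positive replicate 3 and SC GFP-negative replicate 3. Between the SC fractions Klf4 alone of these markers was called, as lower in GFP-positive cells. In GFP-negative cells Tdgf1 alone was called between the cultures, as higher in OMN.

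Cycling cell markers differed in the same direction, with 4 of 10 called lower in OMN GFP-positive cells (Top2a, Ccnb1, Pcna and Mcm5). Their median sum was 125 RPKM in OMN GFP-positive, 526 RPKM in OMN GFP-negative, 236 RPKM in SC GFP-positive and 315 RPKM in SC GFP-negative samples, with Pcna the most abundant in most samples and all 10 genes above 0 in every sample. All 10 markers of postmitotic neurons were called higher in OMN GFP-positive cells, and 6 of 10 were called higher in SC GFP-positive cells. The part of these cell types in the Pmaip1 values was not tested.

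**Figure D3:**
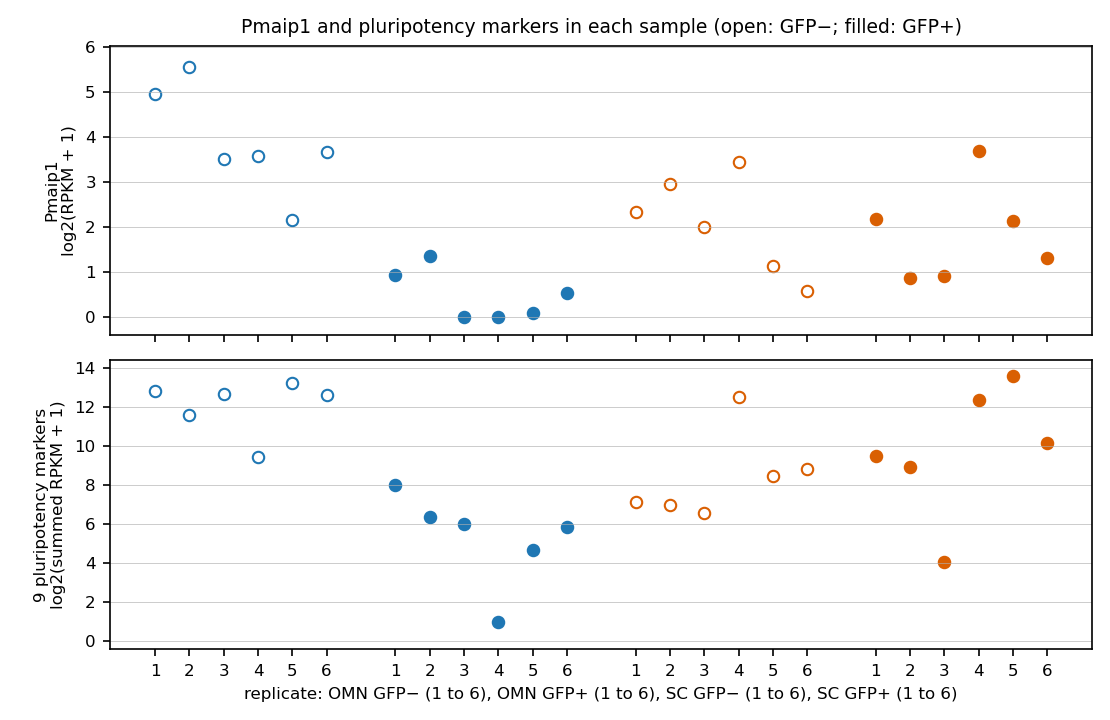
Pmaip1 (upper panel, log2(RPKM + 1)) and the summed level of 9 pluripotency markers (lower panel, log2(summed RPKM + 1)) in each sample, by group and replicate number. Open points are GFP-negative and filled points GFP-positive samples; in OMN cultures both measures are lower in every GFP-positive sample, and in SC cultures both samples 4 are high in both panels.

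Other marker lists were summed in the same way. Endoderm markers had a median sum of 86.2 RPKM in SC GFP-negative samples against 16.5 RPKM in OMN GFP-negative samples, with Sox17, Gata4 and Gata6 called lower in the latter, and 1.36 RPKM in OMN GFP-positive and 2.78 RPKM in SC GFP-positive samples. Of these 7 markers, 5 (Sox17, Gata4, Gata6, Ttr and Cubn) were called lower in SC GFP-positive than in SC GFP-negative cells, and 0 between the OMN fractions. Neural progenitor markers had a median sum of 432 RPKM in OMN GFP-positive, 303 RPKM in OMN GFP-negative, 412 RPKM in SC GFP-positive and 1134 RPKM in SC GFP-negative samples, and of them Sox2 was called lower and Nkx6-1 higher in OMN GFP-positive than in OMN GFP-negative cells. Astrocyte markers were near 0 in all groups, with a highest sum of 2.38 RPKM, neural crest markers reached at most 14.9 RPKM, and none of either list was called.

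Bbc3 codes for Puma, a BH3-only protein that p53 induces and that binds every anti-apoptotic member. In OMN GFP-positive samples it had a lowest value of 1.77, a median of 5.82 and a highest value of 31.3 RPKM, and in OMN GFP-negative samples 0.759, 2.43 and 7.33 RPKM. The SC GFP-positive values were 1.11, 9.77 and 24.7 RPKM, and the SC GFP-negative values 0.597, 7.81 and 23.7 RPKM. All groups overlapped, and the samples numbered 5 and 6 lay below the others in each group, at up to 2.02 RPKM.

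Bbc3 was higher in the GFP-positive fraction in 5 of 6 OMN pairs and in 5 of 6 SC pairs. Between the OMN fractions the log2 change was 1.08 (SE 0.77, limma adjusted p = 0.544), with an adjusted p of 0.0382 with the replicate block and 0.0156 with the pairs of each culture as the block. It was 1.28 in replicates 1 to 4, 0.68 in replicates 5 and 6 and 0.55 with sample quality weights. Leaving out 1 sample moved it between 0.67, without OMN GFP-positive replicate 4, and 1.38, so single libraries carried part of its size. Between the SC fractions the change was 0.25 (SE 0.77) and between -0.17 and 0.63 with 1 sample left out, and the difference between the steps was 0.84 (SE 1.09, limma adjusted p = 0.908). In GFP-negative cells all 6 OMN samples lay below the SC median of Bbc3, with a log2 change of -0.89 (SE 0.77, limma adjusted p = 0.701). It was -0.51 without both spinal samples 4, -0.34 without SC GFP-negative replicate 2 as well, -1.32 in replicates 1 to 4 and -0.01 in replicates 5 and 6.

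Bcl2l11 codes for Bim, the BH3-only protein that neurons raise on loss of trophic support. Its group means lay between 2.83 RPKM in SC GFP-negative and 3.39 RPKM in OMN GFP-negative samples, and single samples ranged from 0.631 to 6.96 RPKM. It was higher in the GFP-positive fraction in 3 of 6 pairs of each culture. Its log2 changes lay between -0.23 and 0.20 in the 4 comparisons of groups, with SEs of 0.38 to 0.43, so each was smaller than its SE.

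Bid, which links death receptors to mitochondria once caspase-8 cleaves it, was 6.30 ± 3.84 RPKM in OMN GFP-positive, 6.14 ± 2.03 RPKM in OMN GFP-negative, 4.93 ± 3.10 RPKM in SC GFP-positive and 4.01 ± 3.09 RPKM in SC GFP-negative samples (mean ± SD, n = 6). All 6 OMN GFP-negative samples lay above the SC GFP-negative median, with a log2 change of 0.64 (SE 0.39, limma adjusted p = 0.560). Bid shares 628 bases of exon with the opposite-strand gene Bcl2l13, itself a Bcl2-like gene, and reads there cannot be told apart.

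The members were also summed by role, as a description without a test. Other genes of the family, such as Bcl2l2 and Hrk, were left out of these sums. The anti-apoptotic sum divided by the effector sum had a median of 0.426 in OMN GFP-positive, 0.727 in OMN GFP-negative, 0.866 in SC GFP-positive and 0.919 in SC GFP-negative samples. It was lowest, between 0.363 and 0.723, in OMN GFP-positive samples, which overlapped with each of the other groups, and it was above 1 in 6 of the 24 samples, 5 of them in SC cultures. Among these 5 were both SC samples 2, at 3.51 in the GFP-positive and 5.05 in the GFP-negative fraction. Both SC samples 6 were also among them, at 1.64 in the GFP-positive and 6.34 in the GFP-negative fraction, the latter the highest of the 24 samples. Without SC GFP-negative replicate 2 the median of that group was 0.639, below that of OMN GFP-negative samples. Mcl1 made up between 52.98% and 96.5% of the anti-apoptotic sum, and Bcl2 between 0.111% and 14.2%.

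Within the sum of the BH3-only members the OMN fractions differed in composition. Hrk, a BH3-only gene left out of that sum, had means of 5.29 RPKM in OMN GFP-positive and 0.333 RPKM in OMN GFP-negative samples. Pmaip1 made up 3.10 ± 3.48% of the sum in OMN GFP-positive and 52.1 ± 16.4% in OMN GFP-negative samples (mean ± SD, n = 6), without overlap, as for its RPKM. Bbc3 made up 42.3 ± 30.8% and 12.3 ± 11.3% of it, with overlap. In SC cultures Pmaip1 made up 14.9 ± 8.46% in GFP-positive and 19.1 ± 10.1% in GFP-negative samples. The BH3-only sum itself had a median of 18.2 RPKM in OMN GFP-positive and 25.7 RPKM in OMN GFP-negative samples, and 16.3 and 18.8 RPKM in the same fractions of SC cultures.

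The 2 depth sets differed in the level of most members. The mean of log2(RPKM + 1) was lower in the 8 samples numbered 5 and 6 than in the 16 samples numbered 1 to 4 for 8 of the 9 members, as for 67.1% of the 11952 genes with a mean of at least 1 RPKM. The difference was -2.26 for Bbc3, -2.10 for Bak1 and -1.72 for Bcl2l1, against a median of -0.37 over those genes, and 1.15%, 1.73% and 4.31% of them had a difference as low. It was -1.17 for Bax, -0.97 for Mcl1, -0.95 for Pmaip1, -0.87 for Bcl2l11, -0.32 for Bcl2 and 0.24 for Bid. Between 5 and 10 reads lay behind each Bak1 value of replicates 5 and 6.

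Other genes of apoptosis were taken from 8 lists with 66 genes, of which 63 were in the table. Between the OMN fractions limma called 4 of 63 higher and 1 lower in GFP-positive cells, where it called 3.81% of all genes higher and 2.34% lower, so the count was near that over all genes. An unadjusted p under 0.05 with limma was reached there by 13 of the 63, against 18.1% of all genes. The median log2 change was 0.04 over the lists and 0 over all genes tested. In the other comparisons limma with neither a block nor a covariate, over all samples, called 0 of them: 60 genes were tested between cultures in GFP-positive cells and 63 elsewhere. At an unadjusted p under 0.05, 2 passed in GFP-positive cells, 6 in GFP-negative cells, 5 between the SC fractions and 4 for the difference between steps. Over all genes 10.1%, 11.3%, 10.4% and 7.13% passed in these comparisons, in that order. limma voom tested 47 of the listed genes in GFP-positive cells and 49 in each other comparison, and called 0 in these 4. With the depth set as a covariate Bok was called in GFP-negative cells, where 1.65% of all genes were. For the steps 1 of the 63 genes was called in 3 settings, near the share over all genes: Bok with the pairs of each culture as the block (2.04% of all genes) and without both spinal samples 4 (1.04%), and Trp73 without those and SC GFP-negative replicate 2 (1.29%). Both genes were called in GFP-negative cells without both spinal samples 4, where 2.67% of all genes were called. The median log2 change of the listed genes was -0.11 in GFP-positive cells, -0.13 in GFP-negative cells, -0.06 between the SC fractions and 0.06 for the difference between steps, where the medians over all genes were -0.04, -0.04, 0 and 0.01.

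Of the other Bcl2 family genes, Bcl2l2 and Hrk were higher in OMN GFP-positive cells. Bcl2l2 codes for the anti-apoptotic protein Bcl-w and rose from 1.20 ± 0.331 to 3.97 ± 0.803 RPKM (mean ± SD, n = 6), a log2 change of 1.18 (SE 0.35, limma adjusted p = 0.0461). Hrk, a BH3-only gene of neurons, rose from 0.333 ± 0.279 to 5.29 ± 3.90 RPKM, a log2 change of 2.09 (SE 0.38, limma adjusted p = 1.20e-03). For both genes every GFP-positive sample lay above every GFP-negative sample, where 6.52% of the genes tested did not overlap, in either direction. In the SC fractions Hrk was 2.84 ± 1.22 RPKM in GFP-positive and 1.51 ± 1.496 RPKM in GFP-negative samples. Bcl2l2 was 4.14 ± 2.63 and 3.18 ± 1.91 RPKM in the same SC fractions. With neither a block nor a covariate, over all samples, limma called none of the 6 remaining pro-apoptotic genes of the lists. Bok was called lower with the replicate block (log2 change -1.64, limma adjusted p = 0.0375), with the depth covariate (9.54% of all genes called) and without both spinal samples 4 (8.36%).

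Outside the family, Ngfr, Cdkn1a and Birc5 were called between the OMN fractions. Ngfr, the p75 neurotrophin receptor, was 19.4 ± 16.8 RPKM in GFP-positive and 0.995 ± 0.919 RPKM in GFP-negative samples (log2 change 3.11, SE 0.61, limma adjusted p = 2.19e-03). Cdkn1a, the p21 inhibitor of the cell cycle and a p53 target, was 71.9 ± 27.7 and 20.6 ± 6.00 RPKM (log2 change 1.70, SE 0.38, limma adjusted p = 7.68e-03). Over all samples, with neither a block nor a covariate, it was the 1 gene called of 12 in the p53 list. Trp73 was called lower with the pairs of each culture as the block (log2 change -0.40, limma adjusted p = 0.0193). It was also called without both spinal samples 4. Birc5, which codes for survivin and is expressed in dividing cells, was 20.3 ± 16.5 and 68.8 ± 25.0 RPKM (log2 change -2.04, SE 0.52, limma adjusted p = 0.0173). Means in SC GFP-positive and SC GFP-negative samples were 18.0 and 5.31 RPKM for Ngfr. They were 36.4 and 27.1 RPKM for Cdkn1a and 27.5 and 41.4 RPKM for Birc5. Over all samples, with neither a block nor a covariate, limma called no gene of 3 lists between the OMN fractions. These were the 9 apoptosome and caspase genes, the 8 regulators of Mcl1 and BH3-only genes and the 5 mitochondrial genes. Of them 1, 2 and 0 had an unadjusted p under 0.05 with limma, against 18.1% of all genes. Foxo1, a regulator, was called lower with the replicate block (log2 change -1.63, limma adjusted p = 0.0156), with the depth covariate, without both spinal samples 4 and by limma voom. With the pairs of each culture as the block 11 of the 63 genes were called, where 16.4% of all genes were.

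In replicates 1 to 4 alone, none of Ngfr, Cdkn1a, Birc5, Bcl2l2 and Hrk was called, and 1 of the 63 listed genes was, Foxo1, where 2.27% of all genes were. Medians of these replicates in OMN GFP-positive and OMN GFP-negative samples were 22.2 and 1.43 RPKM for Ngfr, 71.6 and 21.6 RPKM for Cdkn1a and 24.2 and 49.3 RPKM for Birc5. They were 4.14 and 1.15 RPKM for Bcl2l2 and 3.45 and 0.550 RPKM for Hrk.

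The genes most like each member across the 24 samples were taken among 11949 genes with a mean of at least 1 RPKM, as a description. These samples share groups and depth sets. Pmaip1 was most like Zic5 (Pearson r of log2(RPKM + 1) 0.93) and Lyar (0.92), and Bbc3 most like Htt (0.96) and Gigyf1 (0.94). Bcl2l1 was most like Stk19 (0.94) and Zfp428 (0.94), Bak1 like Cdc34 (0.90) and Slc15a4 (0.90), and Bax like Hsp90ab1 (0.92). Mcl1 was most like Utp6 (0.87) and Rps13 (0.86), Bcl2l11 like Ddx19a (0.87) and Ppif (0.87), Bcl2 like BC024139 (0.83) and Purb (0.81), and Bid like Fam60a (0.82) and 2700097O09Rik (0.79). No member was among the 2 genes most like another member.

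The 9 genes lie on 7 chromosomes of GRCm38 in the GENCODE annotation, and all are protein coding. Bbc3 (chromosome 7, 16308393 to 16318205, plus strand) and Bax (chromosome 7, 45461697 to 45466898, minus strand) share a chromosome, as do Bcl2l11 (chromosome 2, 128126038 to 128162547, plus strand) and Bcl2l1 (chromosome 2, 152780668 to 152831728, minus strand). Pmaip1 lies on chromosome 18 (66458533 to 66465565, plus strand), Mcl1 on chromosome 3 (95658788 to 95663176, plus strand) and Bcl2 on chromosome 1 (106538178 to 106714274, minus strand). Bak1 lies on chromosome 17 (27019810 to 27029009, minus strand) and Bid on chromosome 6 (120891930 to 120916853, minus strand). Pmaip1, Mcl1, Bbc3, Bcl2l1 and Bcl2l11 overlap no other annotated gene.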

How the data were processed

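The authors mapped the reads to mm10 (GRCm38) with HISAT2 2.0.3, as their processing notes say, and deposited RPKM values per gene, computed with rpkmforgenes, for 24 samples, and the annotation was not stated. SMART-seq2 reads carry no strand and no molecular identifiers. DESeq2 1.12.4 is also named in the notes and was not used here.

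Mapped reads per sample were estimated from the whole-read steps of the RPKM values. Whole reads, within 0.001 of a read, were recovered for 99.57% of the 22848 genes above 0. Values were tested as log2(RPKM + 1) with limma 3.58.1 in R 4.3.3 (trend), over genes with values above 0 in 2 or more samples of the fit, with Benjamini-Hochberg adjustment over all of them and a threshold of 0.05. GFP-positive cells of both cultures were compared in a fit of 12 samples, and the other comparisons came from a fit of all 24. The depth set, replicates 1 to 4 against 5 and 6, was a covariate in an alternative. Other alternatives changed the offset, the filter, the scaling, the sample weights, the samples fitted and the block, and limma voom was run on genes with at least 10 recovered reads in at least 6 samples. The fit was tested on simulated data.

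Pairing was checked by correlating deviations from the group means over 11950 genes with a mean above 1 RPKM and a unique name. Same-numbered fractions correlated at 0.38 to 0.73 in the 6 OMN pairs and 0.42 to 0.66 in the 6 SC pairs. Differently numbered fractions were not compared and the depth sets were not taken out, so this check cannot show that the numbers pair the samples. Between cultures same-numbered samples reached 0.71 in GFP-positive and 0.61 in GFP-negative samples, and some correlations were below 0.

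Named genes were the 9 members, the listed pathway genes past the threshold (at most 3 per list and comparison with the largest log2 change), Isl1, Mnx1 and Phox2a, and the 2 genes most like each member by Pearson r, of which 1 is not reported here. Cell type markers named singly, and Bok, Foxo1 and Trp73, were picked after their values were seen. The members and lists were chosen with earlier results of these data known. Bcl2a1a, Bcl2a1b and Bcl2a1d were listed but are not in the table. Of the columns, 0 were identical to another and 0 were left unused.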

Additional observations from a re-analysis of the deposited data

Results flagged for a closer look

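In 3 of the 36 combinations of a member and a group, 1 sample lay far from the other 5 on the log2(RPKM + 1) scale, by the Dixon test of gap over range at 95%, where chance alone gives about 1 in 20 for normal values. On RPKM without log2 the count was 6, with Bcl2l1 in OMN GFP-positive, Pmaip1 in SC GFP-positive and Bid in SC GFP-negative samples added. Bcl2 was 10.2 RPKM in SC GFP-negative replicate 3, from 70 reads in the library with the fewest mapped reads (752529), against at most 1.38 RPKM in the other samples of that group. Bak1 was 7.64 RPKM in OMN GFP-positive replicate 4, from 26 reads. Bcl2l11 was 6.15 RPKM in SC GFP-positive replicate 4, the library that went against its label for Isl1. The causes were not tested.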

How the results depend on the processing

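Of the 9 members, the count called by limma changed under some alternatives. Log2 changes of members that were called kept their sign, while several small ones that were never called did not, such as Pmaip1 between the SC fractions (-0.77 to 0.87) and Bbc3 between cultures in GFP-positive cells (-0.44 to 0.29). Between cultures in GFP-positive cells the count was 0, and 1 (Mcl1) with the depth set as a covariate, where 191 of 19240 genes were called. In GFP-negative cells it was 0, and 1 (Pmaip1) with sample quality weights (650 of 22179 genes) and without SC GFP-negative replicate 2 and both spinal samples 4 (573 of 20880). Between the OMN fractions it was 1, then 2 with quality weights or the depth covariate and 3 with the replicate block, where 1364, 3795, 2116 and 2361 of 22179 genes were called. Between the SC fractions it was 0 in all 15 alternatives. For the difference between steps it was 0, and 1 (Pmaip1) with a filter above 1 RPKM in at least 6 samples, median-of-ratios scaling, quantile normalization, quality weights, the depth covariate, the replicate block or without SC GFP-negative replicate 2 and both spinal samples 4, where 100, 108, 95, 240, 123, 133 and 270 of all genes were called. Further alternatives were chosen after seeing the data: replicates 5 and 6 alone gave 0 between the OMN fractions, leaving out both spinal samples 4 gave 1 in GFP-negative cells (584 of 21837 genes) and 1 for the difference between steps (228), and the block within each culture gave 4 between the OMN fractions (3644 of 22179 genes) and 2 for the steps (453).

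Leaving out 1 sample gave a count of 0 to 0 in both comparisons between cultures and between the SC fractions, 1 to 1 between the OMN fractions, and 0 to 1 for the steps, with 1 without OMN GFP-negative replicate 5 or SC GFP-negative replicate 4. The adjusted p of Pmaip1 between the OMN fractions ranged from 4.23e-06 to 0.0553 over the 15 alternatives. Of the other listed genes, Bok was called in GFP-negative cells with the replicate block or the depth covariate. The number of all genes called moved more. It was 116 in GFP-positive cells (13 with replicates 5 and 6 alone, 342 in a fit of 24 samples), 213 in GFP-negative cells (39 with replicates 1 to 4, 650 with quality weights), 1364 between the OMN fractions (476 and 3795 in the same settings), 272 between the SC fractions (1 with replicates 1 to 4, 649 without SC GFP-negative replicate 2 and both spinal samples 4) and 71 for the steps (10 with replicates 1 to 4, 453 with the block within each culture). Fewer samples were fitted where replicates were left out; otherwise the cause was not tested. Few reads limit Pmaip1, Bcl2 and Bak1 in single samples.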
